A study of Mus musculus with 6 samples.

Results

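The loci of Emp1, Emp2, Emp3 and Pmp22, which encode the EMP and PMP22 family of membrane proteins, were examined in ATAC-seq peak lists of mouse haematopoietic stem cells (HSCs). ATAC-seq marks open chromatin by inserting sequencing adapters into accessible DNA with a transposase. HSCs were sorted as CD48-CD150+LSK cells (lineage-negative, Sca-1-positive, c-Kit-positive) from bone marrow of wild-type C57BL/6J mice that had received an intraperitoneal injection of DMSO, the solvent (3 libraries), or of tunicamycin at 2 mg/kg (3 libraries), with about 5000 cells per library. How old the mice were, how long after injection the cells were sorted and whether a library held cells of 1 mouse or of pooled mice is not given in the sources used here. Nothing in the labels says that the libraries of a group came from separate mice, so the p-values refer to differences between libraries, and these may be technical. Peaks of the 6 lists that overlapped by at least 1 bp were merged into 82993 regions. Of these, 39 lay inside the mm10 RefSeq span of a family gene or within 50 kb of it: 16 at Emp1, 10 at Emp2, 10 at Emp3 and 3 at Pmp22.

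The EMP and PMP22 proteins are small glycoproteins that cross the membrane several times and are distant relatives of the claudins of tight junctions. PMP22 is a component of compact peripheral myelin, folds inefficiently, and is held in the endoplasmic reticulum (ER) by quality control that includes the lectin chaperone calnexin. Extra copies or mutations of its gene cause inherited neuropathies. EMP1, EMP2 and EMP3 are more widely expressed and act at the cell surface in adhesion, growth and integrin signalling. Tunicamycin blocks N-linked glycosylation and thereby loads the ER with misfolded protein, and the title of the study links EMP1 to relief of ER stress in HSCs. The comparison asked whether open chromatin at these loci differed between HSCs with and without that stress.

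The lists held 28501 to 62478 peaks per library on chromosomes 1 to 19, X and Y, and read depth is unknown from them. DMSO replicate 1 had the longest list and DMSO replicate 3 the shortest, and an uncalled site cannot be taken for a closed one. In bulk libraries, fewer cells with an open site and less opening per cell cannot be told apart. The sorted population was checked against marker genes by asking which had, inside the gene or within 1 kb, a region called in all 6 libraries. Of 11 HSC markers 7 did, Cd34, Gata2 and Hlf among them, whereas Fgd5, Slamf1 (which encodes CD150), Tek and Ly6a (Sca-1) did not. The share of 63.6% stood beside 54.4% of all 21887 protein-coding genes. Such a region was present at 1 of 6 neutrophil and monocyte markers (Csf1r), 2 of 5 erythroid (Epor and Klf1), 1 of 6 lymphoid (Pax5) and 4 of 4 megakaryocyte markers (Gp1ba, Gp9, Itga2b and Pf4). It was present at 2 of 5 stroma and endothelium markers (Cdh5 and Pecam1) and 2 of 6 Schwann cell and epithelium markers (Cdh1 and Krt8). Calls of open chromatin at these genes thus did not set the sorted population apart, and the part of other cells in the results was not tested.

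The starts of the 4 genes differed in how often they were called open, and their sequences are shown for that reason. The windows below are RefSeq promoter sequences (GRCm38.p6, the assembly of mm10) from 250 bases before to 50 after an annotated start, printed 5′ to 3′ on the strand of the gene. Capitals mark every exact match, on either strand, to 15 motifs. Those found were the RUNX motif TGTGGT, the AP-1 motif TGANTCA, the GC box GGGCGG and the TATA box TATAAA.
Emp1, first start, chr6:135362681-135362980, plus strand, called in 5 libraries: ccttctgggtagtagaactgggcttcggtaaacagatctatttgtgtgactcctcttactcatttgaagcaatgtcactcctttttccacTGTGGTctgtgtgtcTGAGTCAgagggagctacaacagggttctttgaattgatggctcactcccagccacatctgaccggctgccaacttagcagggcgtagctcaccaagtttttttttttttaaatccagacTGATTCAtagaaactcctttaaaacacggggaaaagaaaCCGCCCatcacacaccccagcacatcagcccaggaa
Emp2, chr16:10313919-10314218, minus strand, called in 4 libraries: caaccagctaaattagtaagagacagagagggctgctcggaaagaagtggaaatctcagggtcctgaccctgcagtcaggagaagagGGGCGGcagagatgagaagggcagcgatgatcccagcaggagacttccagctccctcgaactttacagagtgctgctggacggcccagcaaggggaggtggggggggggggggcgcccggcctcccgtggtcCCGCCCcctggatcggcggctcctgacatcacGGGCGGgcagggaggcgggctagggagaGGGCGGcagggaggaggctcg
Emp3, first start, chr7:45921377-45921676, minus strand, called in 6 libraries: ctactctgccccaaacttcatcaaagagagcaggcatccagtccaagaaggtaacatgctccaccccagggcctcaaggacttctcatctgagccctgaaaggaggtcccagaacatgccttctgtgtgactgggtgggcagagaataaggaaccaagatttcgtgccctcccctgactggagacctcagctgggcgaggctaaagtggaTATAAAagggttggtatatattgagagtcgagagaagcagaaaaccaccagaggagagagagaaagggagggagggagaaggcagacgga
Pmp22, start 4, chr11:63132553-63132852, plus strand, called in 0 libraries: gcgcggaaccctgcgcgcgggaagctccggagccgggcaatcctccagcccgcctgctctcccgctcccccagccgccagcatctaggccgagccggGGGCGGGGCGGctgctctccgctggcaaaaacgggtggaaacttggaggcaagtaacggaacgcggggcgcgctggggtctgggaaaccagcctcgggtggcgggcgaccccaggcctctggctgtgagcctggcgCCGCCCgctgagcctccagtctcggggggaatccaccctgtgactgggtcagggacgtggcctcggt

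The Emp1 window held AP-1 matches that began 145 and 25 bp before the start, and 0.46% of all 32851 promoter windows held more than 1 such match (7.81% held any). It also held 1 RUNX match (16.8% of all windows) and 1 GC box (35.7%). The Emp2 window had 4 GC boxes and no other match, the Emp3 window a TATA box beginning 40 bp before the start (13.6% of windows), and the Pmp22 window 3 GC boxes. Other motifs searched, with the share of all windows that held them, were the ETS motif CCGGAAG (8.86%), the GATA factor motif AGATAA (11.2%), the CREB motif TGACGTCA (1.79%) and the ATF4 motif TGATGCAA (0.895%). The search also covered the ATF6/XBP1 motif TGACGTG (2.01%), which shares its first letters with that of CREB, the EGR motif GCGTGGGCG (0.612%), the TEAD motif ACATTCC (3.85%) and the SOX motif CATTGT (12.6%). It was completed by the E-box CAGGTG (20.2%), the CCAAT box (37.4%) and the ER stress element (0.119%), which contains the CCAAT box. The ER stress element and the ATF6/XBP1 and ATF4 motifs were found in none of the windows of the 9 annotated family starts. These are matches of letters and not measured binding. The windows also differed in base composition, with 5 CpG dinucleotides in that of Emp1, 16 in Emp2, 4 in Emp3 and 30 in the Pmp22 window shown, against a median of 7 over all windows. The Pmp22 window is the richest in CpG of the 4 at that gene, and those of starts 1, 2 and 3 held 3, 18 and 20.

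At Emp1 (chromosome 6, 135362550 to 135383173, 20.6 kb, plus strand), open chromatin lay at the first start, in the body of the gene and on both sides of it. Of 16 regions 3 were called in all 6 libraries, as were 25.1% of all regions, and 5 lay inside the gene. The region over the first start (chr6:135362605-135363058) was called in 3 of 3 DMSO libraries, with fold enrichments of 4.20, 4.62 and 5.04 in replicates 1, 2 and 3. After tunicamycin it was called in replicates 2 and 3, at 4.72 and 3.72, and not in replicate 1. Fold enrichment here is the authors' ratio of signal over background for a peak. These were modest peaks, at percentiles 10.2 to 45.0 by fold within their own lists. Calls in 3 DMSO and 2 tunicamycin libraries were made at 0.799% of all regions. Limiting each list to its 28501 peaks of highest −log10 q left the start called in 2 DMSO libraries and in no tunicamycin library. More peaks were removed from longer lists at this cut. The removed call in tunicamycin replicate 2 had a −log10 q of 8.62, above the 7.85 and 8.26 of the calls kept in DMSO replicates 2 and 3. In the limited lists 26.6% of all regions still called had more DMSO than tunicamycin calls by any margin. That is a wider pattern than the calls at the start, whose own share is not given here. With −log10 q of at least 5 the start was called in 3 DMSO libraries and 1 tunicamycin library. The summits stood 155, 153 and 157 bp before the start in DMSO replicates 2 and 3 and tunicamycin replicate 2, next to the upstream AP-1 match and the RUNX match that began 160 bp before the start, and 68 and 114 bp before it in DMSO replicate 1 and tunicamycin replicate 3. The second annotated Emp1 start, further into the gene, was covered by no peak in any library.

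The strongest region inside Emp1 lay 1.6 kb after the first start (chr6:135364168-135364785). Its fold enrichment was 9.39, 6.82 and 5.17 in DMSO replicates 1, 2 and 3 and 10.2, 10.7 and 7.80 in tunicamycin replicates 1, 2 and 3. To compare lists of different length, each region called in all 6 libraries was given its percentile by fold among the 20810 such regions of the genome in each library. On this scale the region stood at 52.7, 48.1 and 34.8 in the DMSO libraries and at 80.8, 79.4 and 49.4 in the tunicamycin libraries. Tunicamycin replicates 1 and 2 were above every DMSO library, but replicate 3 was below DMSO replicate 1, so the groups overlapped. The means were 69.9 ± 17.8 after tunicamycin and 45.2 ± 9.27 after DMSO (SD, n = 3 each), a difference of 24.7 percentile points. A limma fit over all 20810 regions gave an unadjusted p of 0.0555 and a Benjamini-Hochberg adjusted p of 0.996, so the difference did not pass the threshold of 0.05. By −log10 q the mean percentiles were 67.7 and 49.8. Summits of the 6 libraries fell within 71 bp of each other, and the annotation used here does not say whether the site is exonic or intronic.

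A further region in the body of Emp1, 14.7 kb after the first start (chr6:135377494-135378081), had the opposite sign. Fold enrichments were 7.79, 4.36 and 5.82 in DMSO replicates 1, 2 and 3 and 4.47, 6.21 and 4.65 in tunicamycin replicates 1, 2 and 3. The percentiles among shared regions averaged 12.5 ± 8.69 after tunicamycin and 29.8 ± 19.9 after DMSO (SD, n = 3 each), with DMSO replicate 2, at 8.57, as low as the tunicamycin libraries. The difference of −17.3 points had a limma adjusted p of 0.996, and was −28.5 points without DMSO replicate 2 and −8.56 without DMSO replicate 3. The widest region of the locus, 1288 bp, lay 39.3 kb upstream of the first start (chr6:135323219-135324506), where the nearest protein-coding gene was Pbp2, 12.8 kb away. Its fold enrichment stayed between 6.21 and 7.81 in all 6 libraries, and its percentile averaged 36.3 ± 9.13 after tunicamycin and 43.2 ± 13.6 after DMSO (SD, n = 3 each; limma adjusted p = 0.996).

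Downstream of Emp1, 2 regions were called in most libraries but not in DMSO replicate 3. The region 7.08 kb beyond the gene end had fold enrichments of 8.81 and 5.42 in DMSO replicates 1 and 2 and of 4.74, 5.92 and 4.75 in tunicamycin replicates 1, 2 and 3. The region 34.3 kb beyond the end had values of 7.11 and 5.02 in the same DMSO libraries and of 5.06 and 4.79 in tunicamycin replicates 1 and 3. With lists of equal length both were called in 2 DMSO libraries and in no tunicamycin library. Of all regions still called at that length, 26.6% were called in more DMSO than tunicamycin libraries by any margin. The share with the exact pattern of these regions is not given here. With −log10 q of at least 5 the calls stood as deposited, in 2 DMSO libraries each and in 3 and 2 tunicamycin libraries. Of the 16 Emp1 regions 7 were called in only 1 library, as were 32.4% of all regions.

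At Emp2 (chromosome 16, 10281749 to 10313968, 32.2 kb, minus strand), the region called in all 6 libraries lay 27.2 kb after the start, toward the end of the gene (chr16:10286467-10287099). Its fold enrichment was 11.7, 5.73 and 4.98 in DMSO replicates 1, 2 and 3 and 8.87, 9.95 and 9.32 in tunicamycin replicates 1, 2 and 3. DMSO replicate 1 was the highest of the 6 libraries and DMSO replicates 2 and 3 the lowest, with the tunicamycin libraries close together between them. Among shared regions the percentiles were 78.5, 30.2 and 30.0 against 67.4, 71.3 and 69.1, with means of 46.2 ± 27.9 after DMSO and 69.3 ± 1.95 after tunicamycin (SD, n = 3 each). The difference of 23.0 points had a limma adjusted p of 0.996 (unadjusted 0.125). Without DMSO replicate 1 it was 39.1 points, with a limma unadjusted p of 0.00421 and an adjusted p of 0.381. That omission also raised the share of all shared regions with an unadjusted p under 0.05 from 4.35% to 10.2%. Without DMSO replicate 2 or 3 the difference was smaller, at 14.9 and 14.2 points. The size of the difference thus varied with the DMSO library left out, and the adjusted test was passed in none of these cases.

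At the Emp2 start, too, DMSO replicate 1 stood apart from the other DMSO libraries. The region over it (chr16:10313370-10314149) was called in tunicamycin replicates 1, 2 and 3, with fold enrichments of 3.24, 4.36 and 3.39, and among DMSO libraries in replicate 1 alone, where it reached 6.18. A region 44.2 kb upstream, inside Tekt5 (chr16:10357981-10358357), had the same pattern of calls, with values of 3.93, 5.38 and 5.15 after tunicamycin and 6.93 in DMSO replicate 1. In both cases the single DMSO value was higher than every tunicamycin value. Calls in 3 tunicamycin libraries and DMSO replicate 1 only were made at 4.39% of all regions, and 2 of the 39 family regions had them. With lists of equal length neither region was called in any library. Summits at the Emp2 start ranged from 91 bp before it to 93 bp after it, a wider scatter than at the region 1.6 kb into Emp1. The remaining regions of the Emp2 locus comprised 1 called in 4 libraries, 0.946 kb beyond the gene end, and 6 called in 1 library each.

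Emp3 is a short gene (chromosome 7, 45918023 to 45921426, 3.4 kb, minus strand) among close neighbours, and 6 of its 10 regions were called in all 6 libraries. Only the region over the first start lay inside the gene (chr7:45921229-45921689). Its fold enrichment was 3.81, 3.03 and 4.16 in DMSO replicates 1, 2 and 3 and 3.81, 3.08 and 3.57 in tunicamycin replicates 1, 2 and 3. The groups covered nearly the same range. Although it was called in every library, it was among the weakest shared regions by fold, with mean percentiles of 4.31 ± 6.35 after DMSO and 1.27 ± 1.11 after tunicamycin (SD, n = 3 each; limma adjusted p = 0.996). Of 7436 regions called in all 6 libraries over promoters of protein-coding genes, 0.417% had a lower mean percentile, and their median was 65.8. By −log10 q the same region stood higher, at mean percentiles of 35.2 after DMSO and 27.5 after tunicamycin. The second Emp3 start, inside the gene, was covered by no peak.

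The other shared regions of the Emp3 locus lay in neighbouring genes. The strongest was at Tmem143 and Syngr4, 24.6 kb after the Emp3 start (chr7:45896433-45897764), with fold enrichments of 8.87, 8.54 and 8.15 in DMSO replicates 1, 2 and 3 and 9.56, 9.93 and 9.10 in tunicamycin replicates 1, 2 and 3. By fold as deposited the tunicamycin libraries were all higher, but the share of all shared regions separated in this way is not given here. On the percentile scale the groups overlapped (66.1 to 75.0 against 46.0 to 79.5), and the mean difference of 4.79 points was −5.13 without DMSO replicate 1. At Ccdc114, 1.7 kb before the start (chr7:45922854-45924326), lay the widest region of any of the 4 loci, 1473 bp, where the mean percentile was 29.2 ± 3.05 after tunicamycin and 37.8 ± 17.7 after DMSO (SD, n = 3 each). A region in Tmem143, 0.92 kb beyond the end of Emp3 (chr7:45916074-45917103), had 29.7 ± 4.98 and 36.6 ± 17.5 (SD, n = 3 each). The region at Kdelr1, which encodes a receptor that returns chaperones from the Golgi to the ER, lay 48.6 kb after the start (chr7:45872601-45873240), with 18.3 ± 4.49 after tunicamycin and 22.9 ± 7.86 after DMSO (SD, n = 3 each). The region 13.9 kb before the start, in Ccdc114 (chr7:45935052-45935586), had the widest spread after tunicamycin, with fold enrichments of 9.73, 7.67 and 5.68 in replicates 1, 2 and 3 against 8.28, 7.11 and 6.39 after DMSO. Each of these regions had a limma adjusted p of 0.996.

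Pmp22 (chromosome 11, 63128982 to 63159547, 30.6 kb, plus strand) had the fewest called regions of the 4 genes. None of its 4 annotated starts was covered by a peak in any library, and none of its 3 regions was called in all 6. The fourth start, shown above, has a CpG count above 88.3% of all promoter windows, whereas the first start has one above 23.3% of them. Among 3283 windows of protein-coding genes with at least as many CpG dinucleotides as the fourth start, 10.4% were likewise called in no library, against 42.9% of all 21263 windows of protein-coding genes. The most often called region lay inside the gene, 6.8 kb after the first start and 2978 bp from the nearest one (chr11:63135594-63136104). Its fold enrichment was 7.14 and 6.49 in DMSO replicates 1 and 2 and 4.12 and 5.16 in tunicamycin replicates 1 and 3, with no call in DMSO replicate 3 or tunicamycin replicate 2. The lists differ in length and 2 libraries have no value, so these values were not compared between the groups. With lists of equal length only the DMSO calls remained. There 26.6% of all regions still called had more DMSO than tunicamycin calls by any margin, a wider pattern than that of this region. With −log10 q of at least 5, or with 50% cover of the region, it was called in 2 libraries of each group. The other regions were called in 1 tunicamycin library each.

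**Figure D1:**
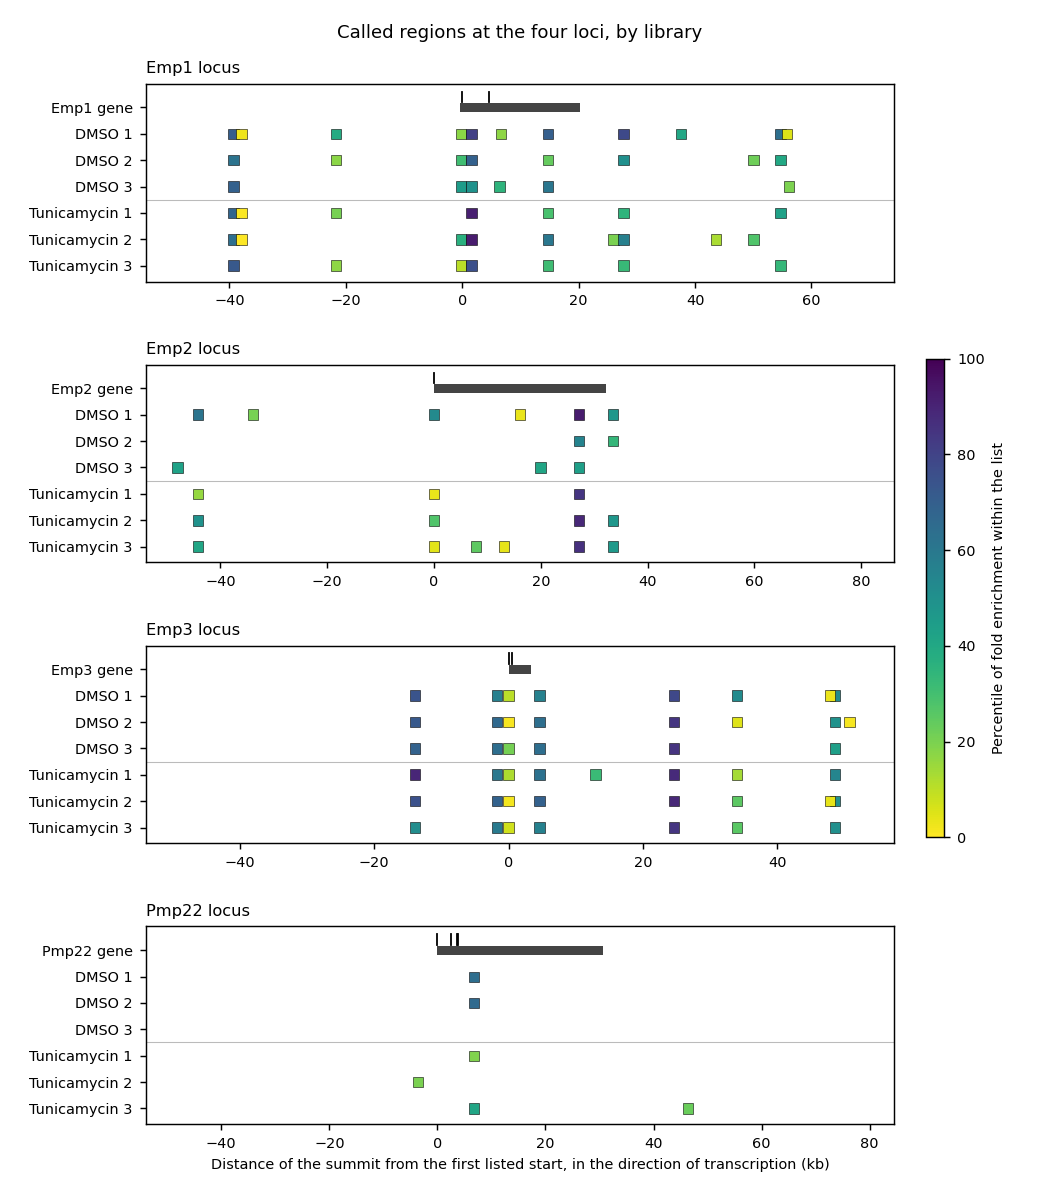
Called regions at the 4 loci: each square is a region called in the library of that row, placed by the distance (kb) of the region's median summit from the first annotated start in the direction of transcription and coloured by the percentile of its fold enrichment within that library's list. Dark bars are the genes and ticks their annotated starts. At Emp3 6 of the 10 columns run through all 6 rows, whereas Pmp22 has 1 region in 4 rows and 2 in a single row.

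Set side by side, the loci differed in how reproducibly their regions were called. All 6 libraries called 6 of 10 regions at Emp3, 3 of 16 at Emp1, 1 of 10 at Emp2 and 0 of 3 at Pmp22, and 10 of 39 (25.6%) over the family, close to the 25.1% of all regions. Regions called in 1 library made up 17 of 39 (43.6%), against 32.4% of all regions. Scaled to the length searched, Emp1 had 13.3 regions per 100 kb, more than 90.8% of protein-coding genes, Emp3 9.67 (75.6%), Emp2 7.56 (62.8%) and Pmp22 2.30 (26.8%). By regions called in all 6 libraries the order changed. Emp3 then stood first with 5.80 per 100 kb (above 92.7% of genes), ahead of Emp1 with 2.49 (64.6%) and Emp2 with 0.756 (33.6%), and Pmp22 had none, as did 26.6% of genes. Median region widths were 588 bp at Emp3, 381 bp at Emp1, 343 bp at Emp2 and 238 bp at Pmp22. The number of called regions per library was 6 to 11 at Emp1, 2 to 6 at Emp2, 6 to 8 at Emp3 and 0 to 2 at Pmp22, so Emp1 and Emp3 overlapped, as did Emp2 with Emp1 and Emp3 at 6 and with Pmp22 at 2. The loci are 4 genes and not samples, so no test was made between them.

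No family region separated the treatment groups by its calls. Calls in 3 of 3 tunicamycin and 0 of 3 DMSO libraries were found at 0 of 39 regions, where 0.683% of all regions had them, and the reverse pattern at 0 of 39, against 0.0976%. Among 39 regions a count of 0 cannot be told from shares this low. Calls in more DMSO than tunicamycin libraries were made at 11 regions (28.2%, against 22.3% of all regions), in more tunicamycin than DMSO libraries at 12 (30.8%, against 39.4%) and in equal numbers at 16 (41.0%, against 38.3%). The DMSO libraries called 26, 19 and 15 of the 39 regions in replicates 1, 2 and 3, and the tunicamycin libraries 19, 22 and 22. The means were 51.3% ± 14.3 of the regions after DMSO and 53.8% ± 4.44 after tunicamycin (SD, n = 3 each), and the same libraries called 50.5% ± 20.8 and 58.5% ± 7.70 of all regions. Relative to all regions, the tunicamycin minus DMSO difference of the family share was −5.46 percentage points, less than the SD of 6.73 between the DMSO libraries and of 5.82 between the tunicamycin libraries. No p is given for a share over chosen regions.

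Limiting every list to 28501 peaks changed this picture. The DMSO libraries then called 13, 13 and 15 family regions in replicates 1, 2 and 3 and the tunicamycin libraries 9, 10 and 9, so that the groups did not overlap, while each library called nearly the same share of all regions (33.3% for the shortest list). Means were 13.7 ± 1.15 and 9.33 ± 0.577 (SD, n = 3 each). Of the 18 family regions still called, 9 were called in more DMSO than tunicamycin libraries (26.6% of all regions were), 0 in more tunicamycin libraries (25.2%), and 9 in equal numbers (48.2%). The 9 comprised 6 at Emp1, the first start included, 2 at Emp2 and 1 at Pmp22, whereas the 6 Emp3 regions were called in all 6 libraries. At Emp1 the DMSO libraries called 5, 5 and 6 regions and the tunicamycin libraries 2, 3 and 2. This is a description of chosen regions, with no test. Of the 9 regions, 4 were called in DMSO replicate 3 alone. The same 4 were called in that library alone in the lists as deposited, as were 2.79% of all regions. The share of all regions at equal length is not given here. That library's list was not shortened, so the cut did not fall at the same −log10 q in every list. With −log10 q of at least 5 in place of equal lengths the groups overlapped (22, 15 and 14 regions after DMSO, 14, 14 and 16 after tunicamycin). The same libraries then called 64.0, 36.5 and 26.4% of all regions after DMSO and 44.5, 53.6 and 47.9% after tunicamycin. Relative to all regions, the family difference at that cutoff was −16.8 percentage points over the regions still called.

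**Figure D2:**
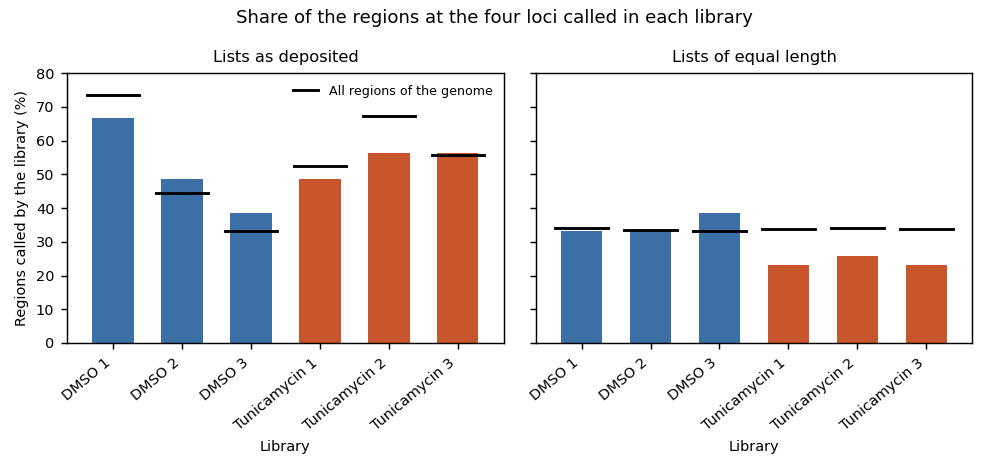
Percent of the 39 family regions called in each library (bars, blue for DMSO and orange for tunicamycin), with the percent of all 82993 regions called by the same library as a black line, for the lists as deposited (left) and limited to 28501 peaks each (right). With lists of equal length the tunicamycin bars, 9 or 10 regions, lie under the line, and the DMSO bars, 13 to 15 regions, close to it (13 regions) or above it (15).

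By rank, 0 of the 10 family regions called in all 6 libraries passed the limma test, and neither did any other shared region: 0 of 20810 had an adjusted p under 0.05 with a higher rank after tunicamycin (0.00%) and 0 with a lower rank (0.00%). At an unadjusted p under 0.05 limma gave 0 of the 10 and 905 of all shared regions (4.35%). The region 1.6 kb into Emp1 passed that unadjusted level when log2 fold was quantile-normalized (1 of 10, against 4.37% of all shared regions). It also passed with −log10 q of at least 5 (1 of 9, against 4.16%). With DMSO replicate 1 left out the level was passed by 2 of 10, against 10.2% of all. These were the regions 27.2 kb into Emp2 and 1.6 kb into Emp1. Omitting DMSO replicate 2 gave 1 of 10 (4.02%), the region 14.7 kb into Emp1, with a difference of −28.5 points. Without DMSO replicate 3 it was 1 of 12 (5.54%), the region 7.08 kb beyond the end of Emp1. Without tunicamycin replicate 3 it was 1 of 10 (3.03%), the region 1.6 kb into Emp1. The passing region and the sign thus changed with the library left out. Omitting tunicamycin replicate 1 or 2 gave 0 of 11 (3.8%) and 0 of 10 (3.0%). When regions were ranked by −log10 q, limma gave 0 of the 10 and 1138 of all (5.47%) at that unadjusted level and again no adjusted call. All tunicamycin percentiles lay above all DMSO percentiles at 0 of the 10 regions (4.66% of all shared regions) and below them at 0 of the 10 (4.55%). The median difference over the 10 regions was −4.10 points, with 3 of 10 positive (0.603 points without DMSO replicate 3), against −0.304 points over all shared regions, of which 48.4% were positive. In absolute size the median difference was 6.91 points for the family and 6.05 for all. The regions 1.6 kb into Emp1, at 24.7 points, and 27.2 kb into Emp2, at 23.0, stood beyond the 95th percentile of 17.9 points of all shared regions, and the region 14.7 kb into Emp1, at −17.3, beyond the 5th percentile of −16.6. All 6 Emp3 regions had differences between −8.61 and 4.79 points.

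**Figure D3:**
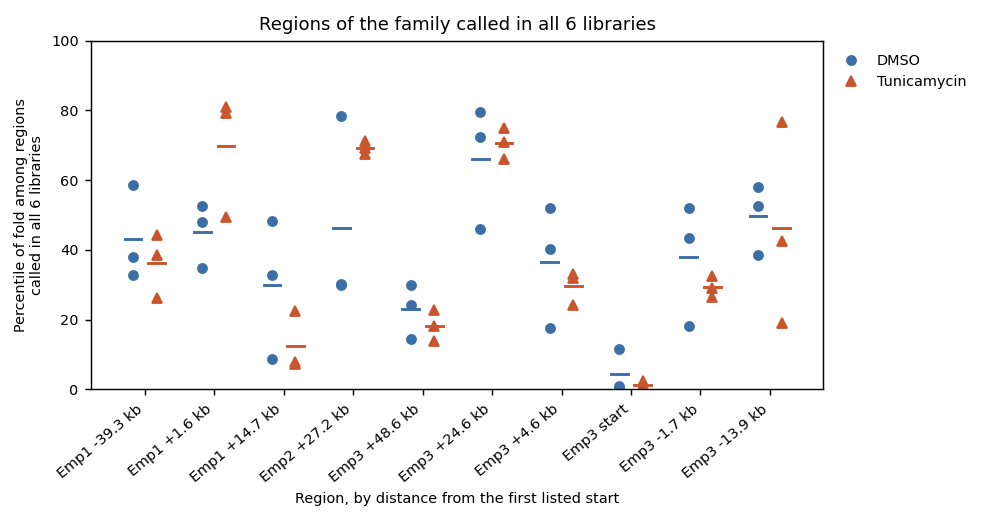
Percentile of fold enrichment among the 20810 regions called in all 6 libraries, for the 10 such regions of the family, with 1 point per library (circles DMSO, triangles tunicamycin) and bars for group means. Points of the groups overlap in all 10 regions, and the DMSO points spread widely at Emp2 +27.2 kb (30.0 to 78.5).

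**Figure D4:**
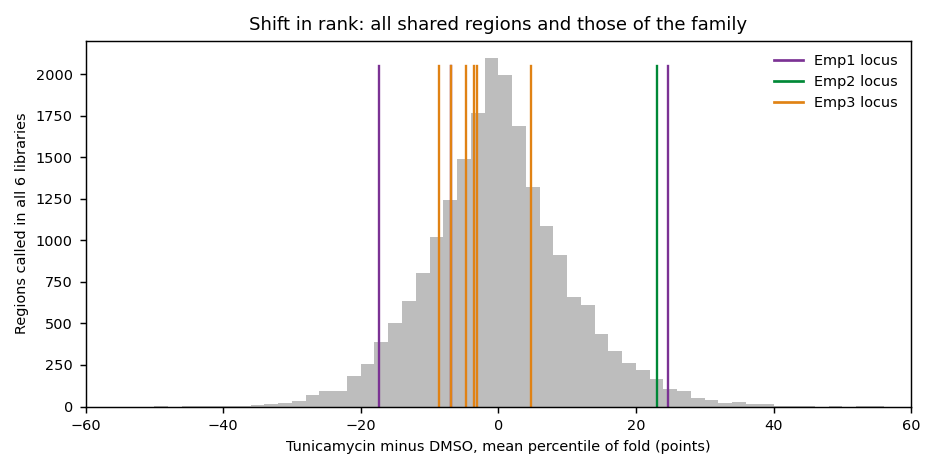
Difference of the mean percentile, tunicamycin minus DMSO, for all 20810 shared regions (grey histogram, 2 points per bar) and for the 10 family regions (lines, coloured by locus). Emp3 lines lie between −8.61 and 4.79 points, and an Emp1 line at 24.7 and the Emp2 line at 23.0 lie to the right.

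Relatives and reported partners of the family were set beside it by the same call criterion. Of the 4 family genes, Emp1, Emp2 and Emp3 had a region called in all 6 libraries inside the gene or within 1 kb, and Pmp22 did not. Among 40 claudin-like relatives (claudins and calcium channel gamma subunits among them) 12 did (30.0%), for example Cacng2, Cacng5 and Cldn10, beside 54.4% of all protein-coding genes. Genes of proteins reported to bind family members did in 10 of 10 cases, with Canx (calnexin), Cav1 (caveolin-1) and Itga6 (an integrin subunit) among them. Of 4 genes of transcriptional regulators known to act on Pmp22 in Schwann cells, only Tead1 had such a region, and Egr2, Sox10 and Yap1 did not. A tunicamycin-only region lay within 50 kb of 1 of 40 relatives (Cldn23) and 1 of 10 partners (Cav1), where 4.88% of all genes had one, and a DMSO-only region near none of them (0.608% of all genes). Cldn23 is a claudin, and caveolin-1 coats small pits of the plasma membrane.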

How the data were processed

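Each of the 6 libraries was represented by its own peak list, so peaks had been called per library. Per the submitters' processing notes, the genome was mm10 and the tools were MACS2, Picard, featureCounts, Bowtie2 2.2.9 and Trim Galore 0.4.4. How reads were filtered or shifted, and at which threshold peaks were called, is not stated there; the largest q in a list was 0.0482 to 0.05. The lists hold, as the authors deposited them, for each peak a display score, a summit, the −log10 of its p-value and q-value and its fold enrichment, a ratio to the local background. Fold and −log10 q served to order or filter peaks inside their own list. Depth of sequencing is unknown.

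Only peaks on the autosomes, X and Y entered the merge, and a library called a region if a peak of it lay there. A region's value was its strongest peak. Genes came from RefSeq (GRCm38.p6), without exons. Normal scores of the ranks of fold among regions called in all 6 libraries were tested with limma 3.58.1 in R 4.3.3 (Benjamini-Hochberg adjustment). The procedure was tested on simulated data, where it recovered most large shifts and missed small ones. The simulated noise was independent between libraries, and even the smaller shift exceeded the largest family difference of 0.683 normal-score units. The power of the test at these loci is therefore not known from it. Exact permutation tests of 3 against 3 libraries cannot go below p = 0.10, and gave 0.20 to 0.90 for the 10 shared regions. Other steps used Python 3.11.15, pandas 2.3.3, NumPy 2.4.6 and SciPy 1.17.1. Named at each locus were the start, the strongest shared region, separated or called regions, the largest rank differences and examples of uneven calls. The Kdelr1 region and those beyond the ends of Emp1 and Emp2 were named after their values were seen. The family and the lists were chosen with earlier results of these data known. Cldn25 had no match, and 2 listed markers are not reported here. Alternatives are given in the closing section.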

Additional observations from a re-analysis of the deposited data

How the results depend on the processing

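The difference in the share of family regions called, −5.46 percentage points relative to all regions, kept its sign under every alternative tried. It moved by more than the SD of 6.29 points between libraries when a call had to cover 50% of a region (−12.2). Its value was −16.8 with −log10 q of at least 5 and −24.5 with lists of equal length. Both are shares of the family regions and of all regions still called. Their base is smaller than that of the −5.46, so the size of the move cannot be compared with it. Leaving out 1 library gave −10.6 to −2.62. Tunicamycin-only regions numbered 0 under all settings except without DMSO replicate 1, where absence from 2 DMSO libraries sufficed and 2 regions counted, those at the Emp2 start and in Tekt5. The range over left-out libraries was 0 to 2. DMSO-only regions remained 0. The median rank difference of the shared regions was −8.98 to 0.603 points with 1 library left out, and 0 regions passed limma's adjusted threshold, of the family or of all, under any setting. The median was 1.07 points when percentiles were taken among all peaks of a library, and −4.97 to −2.01 under the other settings. Adjusted p-values of the 10 shared regions ran from 0.381 to 1 over all alternatives.

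Differences of single shared regions kept their sign in 73 of 80 alternatives, the omissions of libraries having been added after the data were seen. For every region the alternatives include the fit with the replicate number as a block. That fit leaves the difference unchanged by design, so its kept signs carry no information. The region 4.6 kb from the Emp3 start changed from −6.89 to 0.722 by −log10 q, and to 2.25 without DMSO replicate 3. That omission also turned the signs 39.3 kb upstream of Emp1 (1.33), at the Emp3 start (1.15) and 1.7 kb before it (0.0596). Without DMSO replicate 1 the region 24.6 kb from the Emp3 start had −5.13, and without tunicamycin replicate 3 that 13.9 kb before it had 9.92. The cause was not tested. Over omissions the differences ran from 16.8 to 34.7 at Emp1 +1.6 kb, −28.5 to −8.56 at Emp1 +14.7 kb, 14.2 to 39.1 at Emp2 +27.2 kb, −12.0 to 1.33 upstream of Emp1, −8.87 to −0.475 at Kdelr1, −5.13 to 10.9 at Tmem143 and Syngr4, −16.3 to 2.25 at Emp3 +4.6 kb, −5.51 to 1.15 at its start, −18.4 to 0.0596 at Ccdc114 and −18.7 to 9.92 in Ccdc114 further away.

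Deviations from group means correlated at −0.0846, −0.014 and 0.0297 for libraries of the same number, and at −0.0874 to 0.101 for the other pairs. The labels do not say whether libraries of the same number were prepared together. Correlations over 3 libraries per group cannot decide it. With the replicate number as a block, limma gave 0 adjusted calls and 917 regions at an unadjusted p under 0.05, against 905 without it, and the smallest adjusted p of the family was 0.998. Because depth is unknown, an uncalled region cannot be read as closed.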

Other observations

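At the Emp3 start, the deposited measures ranked the same region differently. Within the lists it stood at percentiles of 1.01 to 20.8 by fold enrichment but 44.8 to 72.6 by −log10 q. At Ccdc114 next to it the percentiles were 56.8 to 68.9 by fold and 89.7 to 95.9 by −log10 q. At the region 1.6 kb into Emp1 the measures lay closer, at 49.0 to 92.2 by fold and 52.9 to 90.6 by −log10 q. The order of regions by strength at these loci therefore depended on which deposited column was read.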
